A study of Mus musculus with 6 samples.

Results

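The genes described here build and run the primary cilium. The group holds 38 genes named by symbol: subunits of the 2 intraflagellar transport complexes, Bardet-Biedl (Bbs) proteins, the transport motors, 2 GTPases of the cilium membrane, and proteins of the transition zone and basal body. A gene was found by its symbol or an older name in the array files, and a gene with several probes was represented by the probe with the highest mean log2 signal over all 6 arrays. Of the 38 genes, 37 had a probe and 35 had a probe that stood well above background on 3 or more of the 6 arrays and were tested, out of 15414 genes tested and 27670 genes with a probe. Kif17, a kinesin-2 motor, and Nphp4, a transition zone protein, never stood well above background, with processed signals of 7.54 to 9.24 and 6.16 to 7.5 over the 6 arrays. No probe was found for Mks1, another transition zone protein, which is not analysed here.

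The study compared 4T1.2 cells expressing Irf7 from the pMSCV retroviral vector (IRF7, 3 arrays) with 4T1.2 cells carrying the base vector (3 arrays). 4T1.2 is a mouse mammary carcinoma line of BALB/c origin, and IRF7 is a transcription factor of the type I interferon response. Cells of both groups were transduced, selected in puromycin and cloned, and several clones were then pooled, so that each group is 1 pooled population, sampled in 3 experiments. The comparison asks which transcripts differ when Irf7 is expressed from the vector. With 3 arrays a group the precision is limited, and a p-value here weighs a change against the spread among cultures of a population and not among populations made separately. In such bulk RNA, fewer cells with a transcript and less transcript per cell cannot be told apart.

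The primary cilium is a single antenna of microtubules that grows from the mother centriole when most mammalian cells stop dividing, and it concentrates receptors such as those of Hedgehog signalling. Intraflagellar transport moves complexes A and B along the cilium, driven by kinesin-2 motors toward the tip and by cytoplasmic dynein-2 back. The BBSome, the complex of Bbs proteins, carries membrane proteins along with them. The transition zone at the base acts as a gate.

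Irf7 itself gave processed signals of 4486, 4963 and 5012 on the IRF7 arrays and of 246, 195 and 210.5 on the base vector arrays, a 19.4-fold difference in the direction of the labels. Each array held 45018 spots, and 56.8% to 59.7% of the non-control spots were well above background on the IRF7 arrays, against 54.3% to 56.8% on the base vector arrays. The 3 IRF7 arrays and base vector array 1 shared a slide and a scan, and base vector arrays 2 and 3 shared another slide and scan. Of 6 mammary carcinoma markers, Krt8, Krt18, Cdh1, Epcam and Krt14 were well above background on all arrays and Krt19 on none. Their summed signals were 461923 to 511069 in IRF7 cells and 385031 to 445419 in base vector cells. The marker sums here are unscaled, and Krt18 and Krt8 made up most of this one. Epcam gave 161 to 206 on the IRF7 arrays and 62.2 to 72.9 on the base vector arrays, while the signals of Cdh1 and Krt14 overlapped. Among markers of other cells, Itgam, Pecam1, Kdr and Adipoq were above background on no array. The 5 leukocyte markers, 2 of them above background on all arrays, summed to 274 to 433 in IRF7 cells and 209 to 298 in base vector cells. The 3 endothelial markers, of which Cdh5 alone was above background, summed to 272 to 295 in IRF7 cells and 125 to 132 in base vector cells. The 3 fat and fibroblast markers, led by Pdgfra, summed to 3131 to 3579 in IRF7 cells and 6348 to 7233 in base vector cells. Of these, Dcn was well above background on the base vector arrays only. The part of all these markers in the cilium gene results was not tested.

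The cilium genes were mostly lower in IRF7 cells, by small amounts. With levels taken as log2 processed signal relative to each array's 75th percentile, 19 of the 35 tested genes were lower in IRF7 cells (54.3%), 2 were higher (5.71%) and 14 did not pass an adjusted p of 0.05 (limma, Benjamini-Hochberg over all 15414 genes). Over all genes tested, 29.2% were lower, 31.8% were higher and 61.0% were called in either direction, so a called gene is common in these data. The median log2 change was -0.16 for the cilium genes and 0.03 for all genes. None of the 35 changed at least 2-fold, against 5.87% of all genes (2.56% lower and 3.31% higher). Kif3a, Ift140, Bbs2 and Bbs12 were called with a log2 change of at least 0.5 in size, which 20.0% of all genes were, and the changes of the 35 ran from -0.87 to 0.60. The 3 IRF7 arrays lay below the 3 base vector arrays for 20 cilium genes, where 32.3% of all genes did so, and above them for 4, where 35.5% of all genes did so (67.8% in either direction).

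The sign of the median depended on the scaling. Without any scaling the median change of all genes was 0.23 and that of the cilium genes was 0.04. Relative to the all-gene median the cilium genes' median was -0.19 on the log2 scale with and without scaling, since this scaling adds a constant to each array, and 29 of 35 genes lay below the all-gene median both ways. Without a filter on dim probes the same offset was -0.07, and 21 of 37 genes lay below the all-gene median. Without scaling, 4 cilium genes remained lower in IRF7 cells (Kif3a, Ift140, Bbs2 and Bbs5) and 5 were higher (Bbs12, Bbs9, Ift57, Kifap3 and Cep290). All directions below are therefore relative to the 75th percentile of the same array. With slide as a block, 16 cilium genes were lower and 1 was higher, and within the shared slide 15 were lower and 1 was higher. The genes that lost a lower call with slide as a block were Ift172, Ift88 and Rpgrip1l (adjusted p = 0.0612, 0.126 and 0.221), and with median centring the same 3 and Ift122 did. Both slide analyses take the change from the same 4 arrays, with a single base vector array assumed to vary as the others do.

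**Figure D1:**
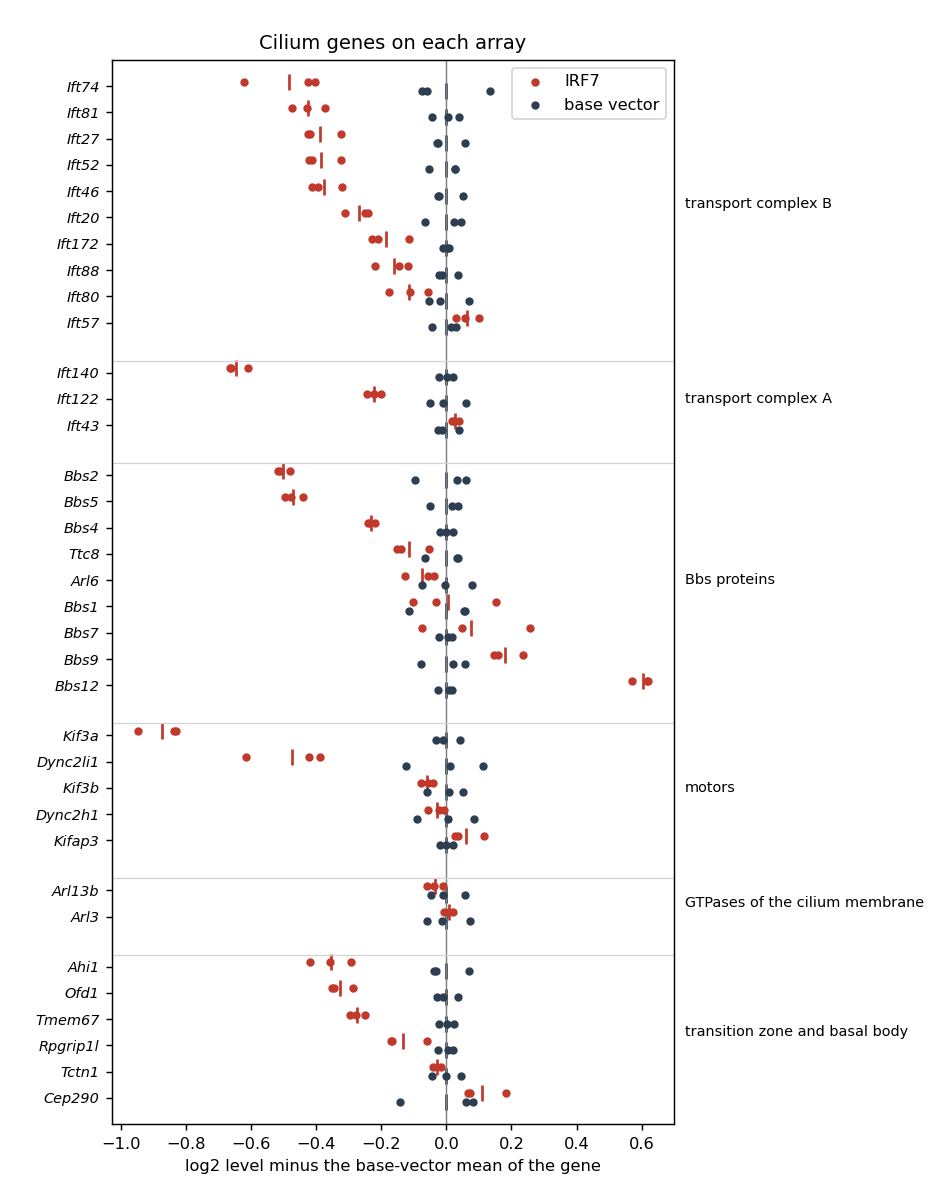
Scaled level of each tested cilium gene on every array, as log2 processed signal minus the array's 75th percentile, less the gene's base vector mean, with points for arrays, strokes for group means and genes grouped by role. IRF7 arrays lie below base vector arrays for 20 of 35 genes and above them for 4, and the 3 arrays of a group lie close together for most genes.

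Probes and promoters of the genes that the results turn on are shown first. The 60-base probes below measured the most changed motor genes, the most changed complex B subunit and the 2 Bbs genes that moved farthest in opposite directions, and they are printed in lower case because no part of them is set apart.
Kif3a: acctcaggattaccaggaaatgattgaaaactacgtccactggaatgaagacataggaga
Dync2li1: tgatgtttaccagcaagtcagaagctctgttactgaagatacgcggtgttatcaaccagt
Ift74: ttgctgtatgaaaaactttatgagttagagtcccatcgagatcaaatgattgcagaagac
Bbs12: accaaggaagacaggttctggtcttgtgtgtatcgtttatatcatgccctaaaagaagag
Bbs2: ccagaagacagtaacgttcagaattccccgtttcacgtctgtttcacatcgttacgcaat
On the mouse build given in the files, mm7, the Kif3a probe lies on the plus strand at chr11:53551693-53554759, a span of 3067 bases, and the Dync2li1 probe on the plus strand at chr17:82939239-82941746, a span of 2508 bases, so that each probe is split over the genome. The Ift74 probe (chr4:94051149-94051208, plus strand), the Bbs12 probe (chr3:37131374-37131433, plus strand) and the Bbs2 probe (chr8:92666035-92666094, minus strand) are unbroken. Exon, intron and UTR annotation of mm7 was not used here.

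The X-box is the DNA element bound by RFX factors, known to sit near the starts of many cilium genes. It was searched on both strands as GTNNCC and NGNAAC separated by 0 to 3 bases, in RefSeq promoters that run from 250 bases before to 50 bases after a gene's start. Of the 33 cilium genes with a promoter in the table, 10 held a match (30.3%), as did 14 of 49 other cilium genes (28.6%) and 5.94% of all 27025 genes. Among tested cilium genes with a promoter, 3 of 15 that were lower in IRF7 cells held a match (20%), and 4 of 15 that were not lower did (26.7%). The interferon response element, searched on both strands as a pair of GAAA separated by any 2 bases, matched in 0 of 33 cilium genes and in 3.99% of all genes. The windows below, with X-box matches in capitals, belong to the 3 genes with a match that were lower and to Ift57, which held 2 matches and did not pass the test. A match describes letters only and is not a measured binding site.
Ift74: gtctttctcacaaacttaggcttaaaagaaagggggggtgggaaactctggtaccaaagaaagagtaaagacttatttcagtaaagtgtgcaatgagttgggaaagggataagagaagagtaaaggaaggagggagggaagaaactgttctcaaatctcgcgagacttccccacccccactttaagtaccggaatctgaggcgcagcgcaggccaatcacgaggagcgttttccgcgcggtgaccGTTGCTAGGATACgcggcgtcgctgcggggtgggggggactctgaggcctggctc
Ahi1: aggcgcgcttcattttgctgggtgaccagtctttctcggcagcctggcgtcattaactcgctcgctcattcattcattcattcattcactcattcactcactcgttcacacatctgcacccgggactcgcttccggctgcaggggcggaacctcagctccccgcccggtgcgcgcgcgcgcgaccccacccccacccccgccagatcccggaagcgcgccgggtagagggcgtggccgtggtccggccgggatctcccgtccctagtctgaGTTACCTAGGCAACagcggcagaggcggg
Bbs4: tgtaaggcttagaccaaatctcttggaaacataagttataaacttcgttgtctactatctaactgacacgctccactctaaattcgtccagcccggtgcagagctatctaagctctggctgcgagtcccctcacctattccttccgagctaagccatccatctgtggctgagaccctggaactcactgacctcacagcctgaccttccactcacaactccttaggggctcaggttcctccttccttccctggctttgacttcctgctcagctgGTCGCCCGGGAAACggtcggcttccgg
Ift57: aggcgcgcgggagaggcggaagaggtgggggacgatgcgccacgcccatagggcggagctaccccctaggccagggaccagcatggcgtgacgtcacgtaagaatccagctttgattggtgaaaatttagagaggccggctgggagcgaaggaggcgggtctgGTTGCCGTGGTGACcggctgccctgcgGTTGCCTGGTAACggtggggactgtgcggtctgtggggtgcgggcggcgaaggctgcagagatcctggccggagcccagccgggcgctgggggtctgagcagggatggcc
On GRCm38.p6, the build of the promoter table, these windows lie at chr4:94614241-94614540, plus strand for Ift74, chr10:20952297-20952596, plus strand for Ahi1, chr9:59353459-59353758, minus strand for Bbs4 and chr16:49699044-49699343, plus strand for Ift57. The Ift74 match begins 5 bases before the start, the Ahi1 and Bbs4 matches 22 and 24 bases after it, and the Ift57 matches 87 and 60 bases before it.

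Transport complex B, which carries tubulin and other cargo, was the role group with the most genes lower in IRF7 cells. Of its 10 measured subunits, 8 were lower (80%) and 2 did not pass the test, with a median log2 change of -0.32. Over all genes tested, 29.2% were lower. Without scaling, none of these 8 lower calls remained. Ift74, which with Ift81 binds tubulin, changed most. Its processed signals were 1755, 1626 and 1953 on the IRF7 arrays, against 2546, 1959 and 2012 on the base vector arrays. These unscaled signals do not overlap, but the lowest base vector array lay only just above the highest IRF7 array. The scaled levels were 0.43, 0.22 and 0.41 in IRF7 cells and 0.97, 0.76 and 0.78 in base vector cells, a log2 change of -0.48 (SE 0.085, adjusted p = 0.00387, limma). Without scaling the Ift74 change was -0.28 and no longer passed the test (adjusted p = 0.0804).

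Its partner Ift81 changed by -0.42 (SE 0.040), Ift27, a small GTPase, by -0.39 (SE 0.044), Ift52, which ties the core together, by -0.39 (SE 0.043), and Ift46, a core subunit, by -0.38 (SE 0.040), all on the log2 scale. Smaller falls were those of Ift20, a subunit also found at the Golgi (-0.27, SE 0.042), Ift172, at the outer side of the complex (-0.19, SE 0.039), and Ift88, long known from the Tg737 mouse with cystic kidneys (-0.16, SE 0.038). Without scaling the Ift172 and Ift88 changes turned to 0.01 and 0.04. The members that did not pass were Ift80, at -0.12 (SE 0.049), whose scaled levels did not overlap between the groups and whose change turned to 0.08 without scaling, and Ift57, at 0.06 (SE 0.035).

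Transport complex A, needed for the return of cargo and the entry of membrane receptors, had 2 of its 3 listed subunits lower in IRF7 cells. That is 66.7%, against 29.2% of all genes tested. Ift140, a core scaffold subunit, gave processed signals of 1188, 1280 and 1392 on the IRF7 arrays, against 1851, 1671 and 1727 on the base vector arrays. The groups do not overlap even before scaling, and the 3 base vector arrays all exceed the highest IRF7 array. The log2 change was -0.65 (SE 0.030, adjusted p = 2.38e-05, limma). Ift122, also of the core, changed by -0.22 (SE 0.038), and Ift43, a small peripheral subunit, by 0.03 (SE 0.030), which did not pass and whose sign turned under quantile normalization and median centring. Ift140 had 3 probes with a usable signal. A further probe at chr17:23279603-23279662, near the chosen one at chr17:23282374-23282433, gave -0.65 (SE 0.16), with dim signals of 45.0 to 83.7. A probe at chr17:23218888-23218947, some way upstream on mm7, gave -0.11 (SE 0.13) and did not pass the test. Its signals were 34.2 to 51.0, where the lowest signal well above background was 28.0 to 34.0 on an array. It stood well above background on 2 of the 3 base vector arrays.

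The Bbs genes moved in both directions. Of 9 measured, 3 were lower, 2 were higher and 4 did not pass, with a median log2 change of -0.07. That is 33.3% lower and 22.2% higher, beside 29.2% and 31.8% of all genes tested. The share called in either direction was 55.6%, near the 61.0% of all genes. Bbs12, a chaperonin-like protein that helps assemble the BBSome, was the member with the largest rise. Its processed signals were 539.9, 602 and 629.99 on the IRF7 arrays, against 368, 325 and 323 on the base vector arrays. The highest base vector array was well below the lowest IRF7 array. The log2 change was 0.60 (SE 0.030, adjusted p = 2.87e-05, limma), the only change of at least 0.5 upward among the 35 genes. Bbs9, a BBSome subunit, rose by 0.18 (SE 0.048, adjusted p = 0.0200), a call that was lost with median centring (adjusted p = 0.297), with slide as a block (adjusted p = 0.142), within the shared slide (adjusted p = 0.0879) and without IRF7 replicate 1 (adjusted p = 0.0628).

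Bbs2, a subunit of the BBSome head, went the other way. Its processed signals were 269, 297 and 303 on the IRF7 arrays, against 400, 349 and 325 on the base vector arrays. Every IRF7 array lay below every base vector array, and the log2 change was -0.50 (SE 0.048, adjusted p = 3.35e-04, limma). Bbs5, which binds phosphoinositides, fell by 0.47 (SE 0.035), and Bbs4, a subunit linked to the centriolar satellite protein Pcm1, fell by 0.23 (SE 0.027). Ttc8, also called Bbs8, was at -0.11 (SE 0.045), Arl6, the GTPase that recruits the BBSome to membranes, at -0.07 (SE 0.050), the BBSome subunits Bbs7 at 0.08 (SE 0.086) and Bbs1 at 0.01 (SE 0.083), none of which passed. Bbs1 and Bbs7 were the dimmest Bbs genes tested, with signals of 68.6 to 98.2 and 106 to 164 over the 6 arrays. Without scaling, Ttc8 and Arl6 turned to 0.09 and 0.13.

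Of the 5 motor genes tested, 2 were lower (40%) and 3 did not pass, where 29.2% of all genes tested were lower. Kif3a, a motor subunit of heterotrimeric kinesin-2, had the largest change of the 35 tested members. Its processed signals were 1490, 1481 and 1678 on the IRF7 arrays, against 2727, 2303 and 2380 on the base vector arrays. The groups are well apart without scaling. The scaled levels averaged 0.16 ± 0.066 in IRF7 cells and 1.03 ± 0.037 in base vector cells (SD, n = 3 each), a log2 change of -0.87 (SE 0.044, adjusted p = 3.01e-05, limma), or 1.83-fold lower. The partner motor subunit Kif3b was at -0.06 (SE 0.037) and the non-motor subunit Kifap3 at 0.06 (SE 0.035), and neither passed. Dync2li1, the light intermediate chain of dynein-2, was dim, with processed signals of 117, 144 and 154 on the IRF7 arrays and 164, 160 and 175 on the base vector arrays. It fell by 0.47 (SE 0.087, adjusted p = 0.00459), and within the shared slide the change was -0.35 and did not pass (adjusted p = 0.0691). The dynein-2 heavy chain Dync2h1 was at -0.03 (SE 0.050), and its sign turned without scaling (0.17).

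Neither GTPase of the cilium membrane passed the test. Arl13b, which marks the ciliary membrane and acts on Arl3, gave processed signals of 1725, 1795 and 1909 on the IRF7 arrays and of 1804, 1492 and 1560 on the base vector arrays, and the groups overlap. Its log2 change was -0.04, with a 95% interval from -0.13 to 0.06, and without scaling it was 0.16. Arl3, which releases lipid-modified cargo in the cilium, was at 0.01 (SE 0.041).

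Of 6 measured genes of the transition zone and basal body, 4 were lower in IRF7 cells and 2 did not pass. The share lower was 66.7%, against 29.2% of all genes tested, and the median log2 change was -0.20. Ahi1, also called jouberin, gave processed signals of 213, 239 and 262 on the IRF7 arrays and of 277, 247 and 270 on the base vector arrays. These raw signals overlap, since the highest IRF7 array exceeds the lowest base vector array. The scaled levels were -2.61, -2.55 and -2.48 in IRF7 cells and -2.23, -2.22 and -2.12 in base vector cells and do not overlap. The log2 change was -0.36 (SE 0.049, adjusted p = 0.00144, limma), and without scaling it was -0.16 (adjusted p = 0.232). Ofd1, a centriole and satellite protein, fell by 0.33 (SE 0.034), and Tmem67, the receptor-like membrane protein meckelin, fell by 0.27 (SE 0.029). Rpgrip1l, a scaffold of the transition zone, fell by 0.13 (SE 0.040, adjusted p = 0.0321), a call that failed in 11 of 19 alternatives, among them no scaling, where the change turned to 0.07. Cep290, which anchors the gate to the microtubules, was at 0.11 (SE 0.072), and Tctn1, or tectonic-1, at -0.03 (SE 0.033), which turned to 0.17 without scaling. The Tctn1 probe was matched by its accession alone, since the files give it another symbol.

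The calls of Kif3a, Ift140, Bbs2, Bbs5 and Bbs12 passed the test with the same direction in all 19 alternatives. Over these, the Kif3a change ran from -0.91 to -0.67, that of Ift140 from -0.68 to -0.44 and that of Bbs12 from 0.52 to 0.80.

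Several genes had further probes above background, which the choice of the brightest probe had not used. There were 29 such probes for 18 genes, and 22 of them had the sign of the chosen probe. For the genes lower in IRF7 cells, 13 further probes of 9 genes were measured, of which 12 had the same sign and 10 were lower in their own right. The further probe of Ift52 gave -0.63 (SE 0.066), beside -0.39 on the brightest. The 3 further probes of Ift172 gave -0.20 (SE 0.031), -0.26 (SE 0.14), which did not pass, and -0.69 (SE 0.086), beside -0.19 on the brightest. The Ift172 probe at -0.26 was dim, with processed signals of 31.1 to 41.1 over the 6 arrays. For the genes that did not pass, 12 of 16 further probes did not pass either. The exceptions were Bbs7 at 0.23 and Kifap3 at 0.09, which were higher, and Kif3b at -0.33 and Ift80 at -0.51, which were lower. These Ift80 and Bbs7 probes were dim, with processed signals of 36.5 to 60.1 and 60.9 to 97.8 over the 6 arrays. Kif3b and Ift80 thus had a lower call on 1 probe only. Of the 35 tested genes, 17 had a single usable probe and so no further probe to compare. Among them were Kif3a, Bbs2 and Ift74, which were lower, and Bbs12 and Bbs9, which were higher.

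**Figure D2:**
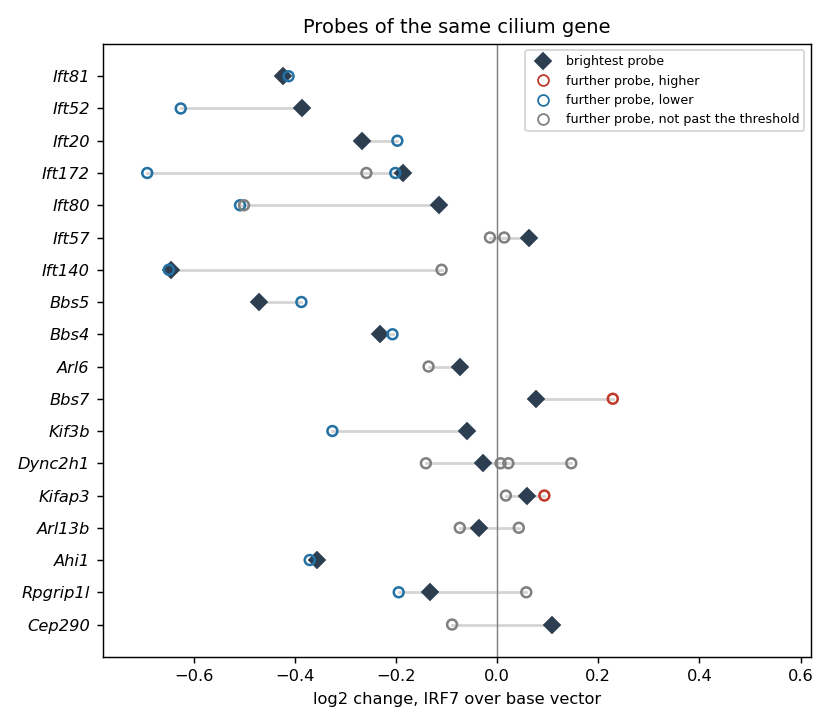
Log2 change, IRF7 over base vector, on each probe of the 18 cilium genes with more than 1 usable probe. Diamonds are the brightest probes and circles the further ones, coloured by their call, and a grey line joins the probes of a gene. Ift81, Bbs4 and Ahi1 give nearly the same change on both probes, while Ift140, Ift172 and Ift80 spread over about 0.4 or more. The further probes of Ift140, Ift80 and Ahi1 are dim, with processed signals of at most 83.7.

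Median changes differed between chromosomes. Chromosome 7 had a median log2 change of -0.38, chromosome 11 of -0.15 and chromosome 2 of -0.12, against 0.03 over all genes. No tested cilium gene lies on chromosome 7. Kif3a lies on chromosome 11, and the 113 tested genes within 5 Mb of it had a median of -0.26, beside its own change of -0.87. Of the 19 genes that were lower, 5 lay where the median within 5 Mb was below 0, namely Kif3a, Ift20 (-0.17), Bbs5 (-0.17), Ift52 (-0.14) and Ift74 (-0.04). The part of position in the results was not tested.

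A wider list held 58 other cilium genes. Of 54 tested, 27 were lower (50%), 9 were higher (16.7%) and 18 did not pass, with a median log2 change of -0.16. The shares over all genes tested were 29.2% lower and 31.8% higher. The 6 genes of the list with the largest change were these. Odf2, of the mother centriole's appendages, was at -1.15 (SE 0.033), Bbip1, the smallest BBSome subunit, at -1.08 (SE 0.049), Cc2d2a, of the transition zone, at -1.02 (SE 0.065), Nek8, a kinase of the inversin compartment, at -1.0 (SE 0.048) and Cep89, of the distal appendages and on chromosome 7, at -0.92 (SE 0.027). Iqcb1, also called nephrocystin-5, rose by 1.07 (SE 0.028), with processed signals of 1366, 1512 and 1551 in IRF7 cells and 669, 582 and 591 in base vector cells. All 6 held their calls in all 19 alternatives, but with the mean over a gene's usable probes Bbip1 was at -0.38 and Odf2 at -0.66.

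Grouping both lists by protein complex was done after the values had been seen and gets no test, and the other genes named with it were chosen then too. Beside the counts that follow, 29.2% of all genes tested were lower and 31.8% were higher. Of 10 measured core subunits of complex B, 9 were lower, with a median of -0.38 and Ttc30b lowest at -0.85. Of 6 subunits of the complex B periphery, 2 were lower and 1 was higher, with a median of -0.10. Of all 6 complex A subunits, 5 were lower, with a median of -0.38, including Wdr19 at -0.76 and Ttc21b at -0.53. Of 8 BBSome subunits, 4 were lower and 1 was higher. Of the 3 Bbs chaperonins, Bbs12 was higher, Bbs10 was lower at -0.40 and Mkks was at 0.02. Of 12 measured genes of the transition zone's MKS module, 10 were lower, with a median of -0.37, and B9d1 and B9d2 stood at -0.78 and -0.85, the second of these on chromosome 7.

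**Figure D3:**
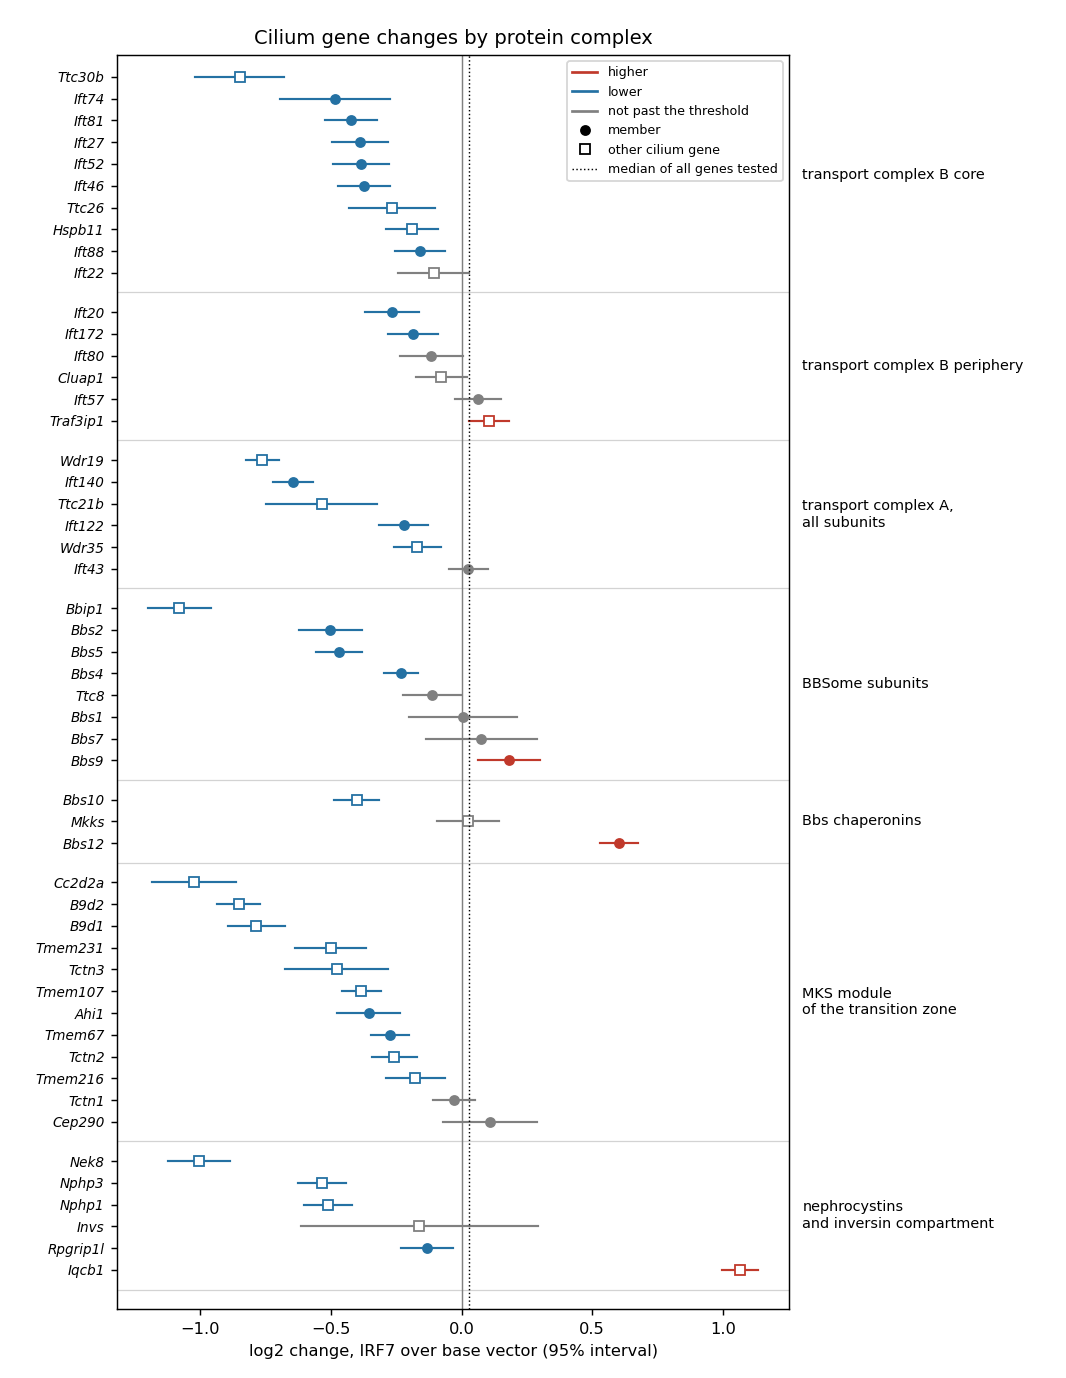
Log2 change, IRF7 over base vector, with its 95% interval, for members (filled circles) and other cilium genes (open squares), grouped by protein complex after the values were seen. Most points of the complex B core, complex A and the MKS module lie left of 0, while Bbs12 at 0.60 and Iqcb1 at 1.07 lie far to the right.

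From a list of 21 Hedgehog genes, some of whose proteins pass through the primary cilium, 15 were tested. Of these, 8 were lower (53.3%), 2 were higher (13.3%) and 5 did not pass. The shares over all genes tested were 29.2% lower and 31.8% higher. Kif7, the kinesin that organises the cilium tip, on chromosome 7, was at -1.07 (SE 0.044), the co-receptors Cdon and Boc at -0.77 (SE 0.098) and -0.64 (SE 0.037), Stk36, a kinase related to the fly pathway's Fused, at -0.67 (SE 0.041), and the signal transducer Smo at -0.32 (SE 0.031). The ligand gene Dhh rose by 0.42 (SE 0.045). Without scaling Smo was at -0.12 and did not pass (adjusted p = 0.273), and with the mean over its probes it was at -0.68 (adjusted p = 0.0496). Among the pathway's targets, Hhip fell by 0.11 (SE 0.035, adjusted p = 0.0347, limma). Its processed signals overlapped before scaling, at 1739 to 1953 on the IRF7 arrays and 1624 to 1822 on the base vector arrays. The highest of these was on an IRF7 array and the lowest on a base vector array, so the fall is relative to the scaling only. Ptch1 was at -0.06 (SE 0.063) and did not pass, and Gli1 was not well above background on enough arrays to be tested. These 3 genes were named after their values were seen.

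From a list of 26 regulators of cilium assembly and disassembly, 22 were tested. Of these, 11 were lower (50%), 5 were higher (22.7%) and 6 did not pass, with a median log2 change of -0.15. The shares over all genes tested were 29.2% lower and 31.8% higher. Rfx5, of the RFX family but known for MHC class II genes, was at -0.80 (SE 0.040), Cilk1, a kinase of the cilium tip, at -0.77 (SE 0.031), Ttbk2, the kinase that starts cilium growth, at -0.55 (SE 0.059), Mark4, on chromosome 7, at -0.47 (SE 0.038) and Plk1, a mitotic kinase, also on chromosome 7, at -0.30 (SE 0.039). Without scaling Plk1 was at -0.10 and did not pass (adjusted p = 0.398), Ttbk2 was at -0.35 and Mark4 at -0.27, and with the mean over its probes Cilk1 was at -0.42.

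Genes of motile cilia, the beating kind, formed a further list. Of 19 listed, 17 were on the array and 8 were well above background on all arrays and tested. Of these, 3 were higher, 2 were lower and 3 did not pass. The share called in either direction was 62.5%, close to the 61.0% of all genes tested. Without scaling, the summed signal of the list was 2568 to 2961 in IRF7 cells, led by Ccno and Tekt2, and 1593 to 1855 in base vector cells. The 75th percentile, not removed from this sum, was 1299 to 1467 on the IRF7 arrays and 1153 to 1298 on the base vector arrays. Ccno, a cyclin family member needed to make many basal bodies, rose by 1.07 (SE 0.029), Tekt2, an axoneme tektin, by 0.75 (SE 0.069) and Tekt4, another tektin, by 0.24 (SE 0.058). Ccdc40, of the axoneme ruler, fell by 0.36 (SE 0.12, adjusted p = 0.0442, limma), and Dnal1, a dynein light chain, fell by 0.25 (SE 0.050), all 5 named after their values were seen. Ccdc40 was dim, with overlapping processed signals of 43.9 to 57.6 on the IRF7 arrays and 48.1 to 64.1 on the base vector arrays. Those of Dnal1 also overlapped before scaling, at 322 to 337 and 318 to 373. Dnah5, Rsph1, Rsph4a, Rsph9, Ccdc39, Spag6l and Tekt1, which serve the beating axoneme, were well above background on no array. Hydin, Dnah9 and Dnah11, also axoneme genes, stood well above background on all 6 arrays and were the 3 that did not pass. Their processed signals were 57.9 to 160, 59.8 to 144 and 42.8 to 63.2 over the 6 arrays. Spag16 and Spag17 stood well above background on 1 array each. The part of these genes in the cilium gene results was not tested.

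**Figure D4:**
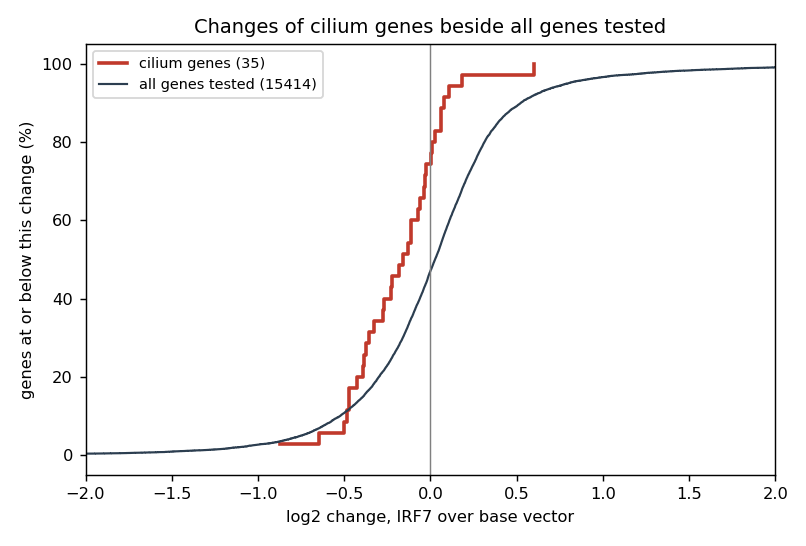
Cumulative share of genes at or below a log2 change, IRF7 over base vector, for the 35 tested cilium genes and for all 15414 genes tested, with the axis drawn from -2 to 2. The cilium gene line lies to the left of the other over most of the range, and meets it near -0.5, since few cilium genes changed strongly.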

How the data were processed

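Total RNA of 6 cultures was labelled with Cy3 and hybridised to single-colour Agilent arrays. The submitters' processing notes name Agilent Feature Extraction 9.5.3.1 as the software. The deposited processed signal is, per the file headers, a background-subtracted intensity on a linear scale, not scaled between arrays. The value table the authors deposited holds the same intensity values (largest difference 0). The groups and replicate numbers came from the sample titles.

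Control spots (1639 per array) and outlier spots (111 to 121) were left out, and spots of a probe were averaged. Log2 values were computed from the deposited intensity, minus each array's 75th percentile. Of 41174 probes, 23518 passed the scanner's test for signal well above background on 3 or more of the 6 arrays, and the brightest stood for its gene. Changes were tested with lmFit and eBayes of limma 3.58.1 in R 4.3.3 (4 residual degrees of freedom), Benjamini-Hochberg adjusted over all genes, at 0.05. The code was tested on simulated data. Named were all members, their signals where called with a log2 change of at least 0.5 or largest in a role group, and up to 6 called genes of each other list. The members and lists were chosen with earlier results of these data known. Names came from accessions and symbols in RefSeq, and promoters from the RefSeq table on GRCm38.p6. Probe coordinates are those of the files (mm7). Alternatives changed the background correction, scaling, filter, probe choice, variance model, slide, pairing and replicates. The values of 1 gene that the naming rule selects are not reported here.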

Additional observations from a re-analysis of the deposited data

How the results depend on the processing

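Of 1026 values of 54 named genes under the 19 alternatives, 948 kept their sign and call, 43 lost their call, 12 gained one and 26 changed sign, 3 of which also lost a call. The main analysis found 19 cilium genes lower and 2 higher, and 9397 genes called in all. Without scaling, the cilium genes had 4 lower and 5 higher with a median of 0.041, and 15 other cilium genes, 4 Hedgehog genes and 4 regulators were lower. Called genes were then 79.1% higher, against 52.1% in the main analysis. With median centring, 1 cilium gene, 2 other cilium genes, 1 Hedgehog gene and 1 regulator were higher, 6198 genes were called and the cilium genes' median was -0.19. Without a filter on dim probes, 14475 genes of 27670 were called, more genes being tested, and the median was -0.19 beside an all-gene median of -0.12. With the mean over a gene's kept probes it was -0.22. Slide as a fixed block and slide 1 alone each left 1 cilium gene, 5 other cilium genes and 3 regulators higher. Leaving out each array in turn gave 18 to 19 cilium genes lower, 1 to 2 higher (1 without IRF7 replicate 1), a median of -0.17 to -0.14, 2 to 4 Hedgehog genes higher (4 without base vector replicate 1) and 6 to 10 other cilium genes higher. The causes of these differences were not tested.

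The replicate block, which takes the replicate number as a fixed term, gave 21 cilium genes lower and 2 higher, with a median of -0.16. Deviations of arrays with the same number correlated at 0.04, 0.17 and 0.23 and each array correlated best with its own number, which is a hint from the data and not from the design, so the numbers were not taken to pair the samples.

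Signs changed in these cases, of which Ift88, Ift172 and Rpgrip1l had been called lower and lost that call, and the other 23 had not been called. Without scaling, Ift80 was 0.085, Ift88 0.041, Ift172 0.015, Ttc8 0.086, Arl6 0.13, Kif3b 0.14, Dync2h1 0.17, Arl13b 0.16, Rpgrip1l 0.068 and Tctn1 0.17. Bbs1 was -0.071 with normexp background, -0.014 with quantile normalization, -0.027 with median centring, -0.050 with slide as a block and on slide 1 alone, and -0.068 (without IRF7 replicate 2) to 0.060 with an array left out. Arl3 was -0.0012 with normexp, -0.028 with quantile normalization, -0.025 with median centring and -0.023 (without base vector replicate 2) to 0.043 with an array left out. Ift43 was -0.046 with quantile normalization and -0.0061 with median centring. Dync2h1 was 0.0014 with the mean of its probes and -0.073 to 0.014 (without base vector replicate 2) with an array left out, and Bbs7 was -0.014 (without IRF7 replicate 3) to 0.15 with an array left out. Dim genes limit the rest, since the lowest signal well above background was 28.0 to 34.0 on an array.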
